A study of Homo sapiens with 4 samples.

Results

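The genes described here encode the netrin receptors UNC5A, UNC5B, UNC5C, UNC5D, DCC and NEO1, and their ligand netrin-1, encoded by NTN1. They are 7 of the 20037 protein-coding genes in the RefSeq table used. They were examined for binding of SPIB, an ETS-family transcription factor, by chromatin immunoprecipitation with sequencing (ChIP-seq). Every peak in 2 deposited lists was taken whose summit lay in a member gene or within 5 kb of it, which gave 1 of 462 peaks from attached cells and 13 of 9024 from suspended cells. The cells were H1703, an established line of lung squamous cell carcinoma, and all of them overexpressed SPIB, so both conditions share that overexpression. How it was achieved is not stated in the labels, and a ChIP from cells without overexpressed SPIB is not analysed here. Bound DNA was recovered with the anti-FLAG M2 antibody. Each condition had 1 ChIP and 1 input library (sheared DNA without antibody). The label of condition separates attached from suspended cells, although the protocol text names 24 h of suspension for every library. ChIP-seq measures no expression, so the labelled cell type was not checked against marker genes.

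Netrin-1 is a secreted guidance cue. DCC is known for attracting growing axons toward netrin-1, and the UNC5 receptors for repelling them. Neogenin, encoded by NEO1, is a DCC relative that also binds the repulsive guidance molecules. These receptors are called dependence receptors because, when their ligand is missing, caspases can cleave their intracellular part and the receptor then promotes cell death, whereas ligand binding stops this. Death of cells that lose their attachment is called anoikis, and the study's title concerns resistance to it. The genes were selected on the peaks of these same lists, the tags and fold of the UNC5A peak among them, so the counts and ranks given here describe these libraries and are not tests.

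After filtering, ChIP depth was 21108364 tags in attached and 20766909 in suspended cells, where a tag is a sequenced read, and input depth was 15878452 and 21437074 tags. With 1 library per condition, no difference between conditions has a replicate check, and the Poisson and binomial 95% intervals below cover counting error only. The fold, the false discovery rate (FDR) and the score of a peak are the authors' own values. The fold is the enrichment over local background, and the score is minus 10 times log10 of the peak caller's p-value. Over the attached list the median FDR was 100%, against 3.65% over the suspended list, and a gene without an attached peak is not shown to be unbound in attached cells.

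The start of a gene is where promoter-bound factors sit, and none of the 13 suspended summits lay within 1 kb of either end of a member gene. RefSeq promoters, from 250 bases before to 50 after the start (GRCh38.p14), were found for 4 of the 7 genes. They were searched on both strands for GGAA, the core letters recognised by ETS factors, and for GAGGAA, a longer form that contains it. The promoters of UNC5A (the gene with the strongest peak, 3 GGAA), DCC (the most GGAA, 9) and NEO1 (the promoter with GAGGAA) are shown 5′ to 3′ along the gene, with GGAA or GAGGAA, or their reverse complements TTCC and TTCCTC, in capitals.
UNC5A, chr5:176810309-176810608, plus strand: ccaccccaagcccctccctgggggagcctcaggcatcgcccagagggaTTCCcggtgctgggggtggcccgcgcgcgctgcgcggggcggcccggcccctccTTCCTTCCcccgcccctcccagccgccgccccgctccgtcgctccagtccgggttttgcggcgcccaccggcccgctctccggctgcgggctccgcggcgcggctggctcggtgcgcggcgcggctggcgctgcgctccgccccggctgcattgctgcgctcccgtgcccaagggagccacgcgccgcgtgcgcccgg
DCC, chr18:52339947-52340246, plus strand: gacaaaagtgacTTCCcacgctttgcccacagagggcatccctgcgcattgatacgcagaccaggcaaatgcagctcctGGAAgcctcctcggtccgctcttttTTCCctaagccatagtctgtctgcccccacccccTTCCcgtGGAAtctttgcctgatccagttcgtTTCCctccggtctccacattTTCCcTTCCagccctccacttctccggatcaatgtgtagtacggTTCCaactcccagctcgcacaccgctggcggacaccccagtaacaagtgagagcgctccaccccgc
NEO1, chr15:73051652-73051951, plus strand: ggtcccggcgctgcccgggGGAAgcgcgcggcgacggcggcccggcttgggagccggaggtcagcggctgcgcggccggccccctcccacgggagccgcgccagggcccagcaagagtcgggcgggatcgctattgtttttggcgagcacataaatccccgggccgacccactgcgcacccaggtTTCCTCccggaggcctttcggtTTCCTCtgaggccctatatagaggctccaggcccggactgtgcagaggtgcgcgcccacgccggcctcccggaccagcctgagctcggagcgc

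In the UNC5A promoter the 3 matches lay on the reverse strand at -202, -148 and -144 from the start. The 9 matches of DCC ran from -238 to -16. In NEO1 there were 3 matches of GGAA, and those at -65 and -43 were also matches of GAGGAA on the reverse strand. The UNC5C promoter, on the minus strand of chromosome 4, held 2 GGAA and no GAGGAA. Of 35116 RefSeq promoters of the same length, 95.5% held GGAA, with a median of 3 matches, and 1.63% held 9 or more. GAGGAA was held by 27.9%, and 4.92% held 2 or more matches of it. GGAA is therefore common in promoters, while the GGAA count of DCC and the GAGGAA count of NEO1 are less so. These letters do not mark a bound site. From the promoter's start site, the nearest suspended summit was 27.2 kb away in UNC5A, 24.5 kb in DCC, 125.8 kb in NEO1 and 3293.9 kb in UNC5C.

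In suspended cells 6 of the 7 genes held a peak, with UNC5C the exception. Over all protein-coding genes the share with a suspended peak was 28.6%. That share rose with the length of the gene, and the members are long. Among genes of 50 to 100 kb, the class of UNC5A (70.3 kb) and UNC5B (90.3 kb), 33.8% held a suspended peak. Among those of 200 to 500 kb, the class of NTN1 (240.9 kb), NEO1 (253.5 kb) and UNC5C (386.5 kb), it was 44.7%, and over 500 kb, the class of UNC5D (561.1 kb) and DCC (1195.7 kb), it was 54%. In attached cells 1 of the 7 genes, UNC5A, held a peak, against 1.86% of protein-coding genes and 2.03% of those of 50 to 100 kb. That peak had an FDR of 18%, and at an FDR of at most 5% no member had an attached peak, where 0.105% of protein-coding genes did. The 13 suspended peaks each had an FDR of at most 4.95%, and 76.8% of the suspended list had one of at most 5%.

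**Figure D1:**
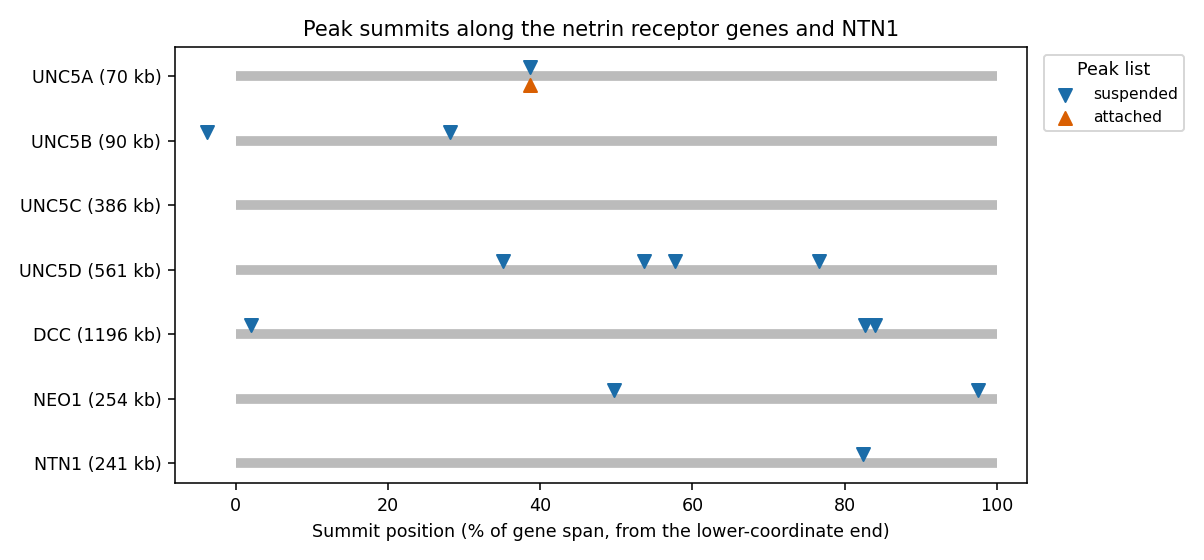
Summit positions of the 14 peaks along each gene, as percent of the gene span from the lower-coordinate end (x axis), for suspended (blue) and attached (orange) peaks, with 1 grey bar per gene. The UNC5A summits of both lists lie at 38.7% of the span, the first UNC5B summit lies before the gene, and UNC5C has none.

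UNC5A encodes a repulsive netrin receptor and held the strongest site. The attached peak lay on chromosome 5 at 176837653 to 176837963 (hg38) and held 28 tags (Poisson 95% interval 18.6 to 40.5). The suspended peak, at 176837581 to 176837984, held 50 tags (37.1 to 65.9) and covered the whole of the attached one. The summits were 8 bp apart, 27.2 kb inside the gene and 43.1 kb from its other end, and no other gene lay within 5 kb. Whether the site is exonic or intronic was not assigned, since the gene table holds spans without exons.

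Within its own list the suspended UNC5A peak ranked 13 by fold (28.25) and 15 by score (346.13) of 9024 peaks. By tags it ranked 524. The attached peak ranked 50 by score (93.76) but 300 by fold (13.26) of 462 peaks. A suspended peak that overlapped an attached one was held by 1.02% of protein-coding genes, where 1.86% held any attached peak. Overlap was common among attached peaks, since 210 of the 462 overlapped a suspended one. Tags divided by library depth were 1.82 times as high in the suspended peak (exact conditional binomial 95% interval 1.12 to 2.99). Its called region was also the wider, 404 against 311 bp, and per bp the ratio was 1.4 (0.863 to 2.30), an interval that includes 1. Over the 212 overlapping pairs of the lists the median ratio was 1.36 (interquartile range 1.07 to 1.75), and 78.3% of pairs had a lower ratio than UNC5A. Per bp the median was 1.10.

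The pairs most like UNC5A in attached and suspended tags were found among the 160 pairs in or within 5 kb of a protein-coding gene, by distance on the log2 scale of both tag counts (2 libraries). The nearest was in or beside FNTA, a subunit gene of protein farnesyltransferase, with 28 attached and 53 suspended tags. The pair shared by PRR14L and DEPDC5 held 31 and 54 tags. LIN28A, an RNA-binding regulator of let-7 microRNAs, had 31 and 46. The pair shared by HES3 and GPR153 held 32 and 47, and TENT2 had 29 and 43. Their distances from UNC5A ran from 0.08 to 0.22 log2 units.

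**Figure D2:**
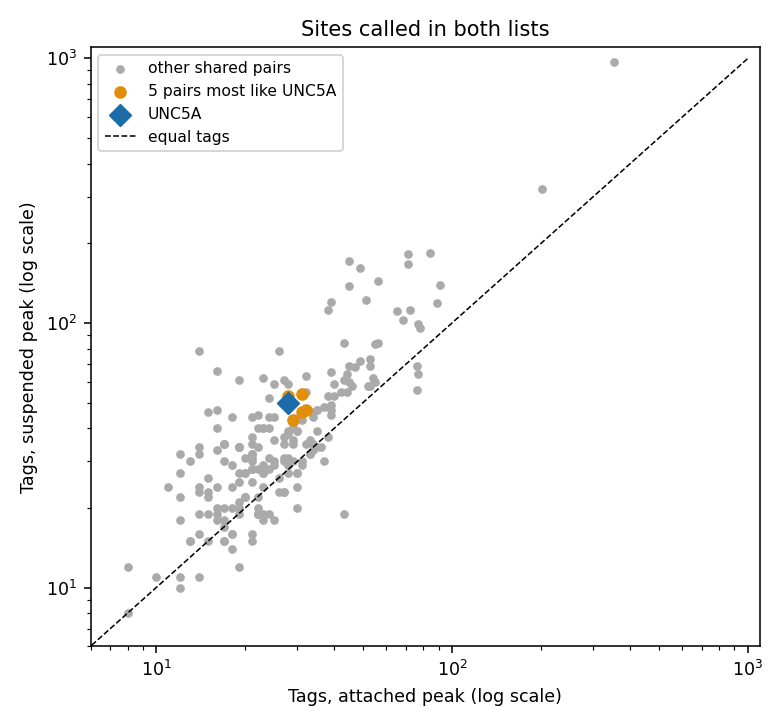
Tags in the attached peak (x axis) and in the suspended peak (y axis), both on log scales, for the 212 overlapping pairs, with UNC5A as a diamond, the 5 pairs most like it in orange and equal tags as a dashed line. UNC5A, at 28 and 50 tags, lies above the line, and the median pair held 25 and 34 tags.

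UNC5B encodes a receptor known from blood vessel guidance and as a p53-induced gene. It had no attached peak and 2 suspended ones. The first, on chromosome 10 at 71208933 to 71209273, had 21 tags (13.0 to 32.1) at a fold of 5.59 (FDR 4.38%). Its summit lay outside the gene, 3454 bp before the lower-coordinate end, and it is the member peak nearest to the 5 kb limit. The second, at 71237833 to 71238261, had 26 tags (17.0 to 38.1) at a fold of 7.56 (FDR 1.81%). It lay 25.4 kb inside UNC5B and also inside LOC112268061, a long noncoding RNA gene, so its position does not tell these genes apart. Among protein-coding genes of 50 to 100 kb, 9.58% held at least 2 suspended peaks. The nearest suspended summit beyond the limit lay 32.3 kb from UNC5B, with 19 tags and a fold of 6.08.

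UNC5D, the longest of the UNC5 genes, held 4 suspended peaks on chromosome 8 and no attached one. The strongest, at 35432371 to 35432595, had 23 tags (14.6 to 34.5) at a fold of 16.59 (FDR 0.21%), and ranked 302 by fold and 479 by score in the list. The others, at 35536683 to 35536890, 35559395 to 35559592 and 35664859 to 35665116, had 14, 16 and 18 tags and folds of 8.68, 8.48 and 6.76. The summits were spread from 35.1% to 76.6% of the gene, with gaps of 104.3, 22.8 and 105.5 kb. In the class over 500 kb, 5.71% of genes held at least 4 suspended peaks. The nearest suspended summit outside the gene lay 325.7 kb away.

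UNC5C, which encodes another repulsive receptor, on chromosome 4 at 95162504 to 95548973, held no peak in either list. The nearest suspended summit lay 3.29 Mb from the gene, with 9 tags, and the nearest attached one 6.53 Mb away, with 8 tags. No suspended peak in the gene or within 1 Mb was found for 5.55% of protein-coding genes, and 1.82% had none as near as UNC5C did. UNC5C is thus the member without a peak and also the member in the emptiest region. Whether the region or the gene sets this was not tested.

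DCC, the receptor that attracts axons, spans 1195.7 kb of chromosome 18 and held 3 peaks in suspended cells. The one nearest to its start, at 52364685 to 52364835, had 9 tags (4.12 to 17.1) and a fold of 12.94, and its summit lay 24.5 kb inside the gene from its start. The other 2, at 53328511 to 53328721 and 53344555 to 53344738, had 10 tags (4.80 to 18.4) and 8 tags (3.45 to 15.8), each with a fold of 14.9. Their summits were 16.1 kb apart, at 82.7% and 84.0% of the span, and 963.8 kb beyond the first. At least 3 suspended peaks were held by 14% of genes over 500 kb. The smallest peak of the suspended list also held 8 tags, so these are among its smallest by tags. The nearest suspended summit outside DCC lay 564.0 kb away.

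NEO1, on chromosome 15, held 2 peaks of the same small kind in suspended cells. At 73177646 to 73177789 there were 8 tags (3.45 to 15.8) at a fold of 14.16 (FDR 3.24%), and the summit lay at 49.7% of the gene. The second, at 73298728 to 73298919, had 10 tags (4.80 to 18.4) at a fold of 13.65 (FDR 2.0%). Its summit lay 6.42 kb from the higher-coordinate end of NEO1 and 1125 bp from the microRNA gene MIR12135. At least 2 suspended peaks were held by 18.5% of genes of 200 to 500 kb. The nearest suspended summit outside NEO1 lay 59.1 kb away.

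NTN1, the ligand gene, held 1 suspended peak, on chromosome 17 at 9201677 to 9201907, with 13 tags (6.92 to 22.2) at a fold of 8.5 (FDR 4.83%). The summit lay 198.6 kb from the lower-coordinate end and 42.3 kb from the other. Its score of 54.34 was above 27.7% of the list, and the peak left the list when the upper 50% by score was taken. The nearest suspended summit outside NTN1 lay 257.8 kb away, with 22 tags.

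Among themselves the peaks of the receptor genes differed in tags. The suspended UNC5A interval (37.1 to 65.9) overlapped that of the second UNC5B peak (17.0 to 38.1) and lay above those of the other 11 suspended peaks. The DCC and NEO1 peaks held 8 to 10 tags and the UNC5 peaks 14 to 50, so these ranges did not overlap. Over the whole suspended list, 30.2% of peaks held 10 or fewer tags. Peaks of the same gene are not replicates of a receptor class, and the difference between these groups was not tested. Counting error was large at this depth, and the intervals of the DCC and NEO1 peaks overlapped those of several UNC5D peaks. In width, the DCC and NEO1 peaks (144 to 211 bp) overlapped the UNC5D peaks (198 to 258 bp), and NTN1 was 231 bp wide. The UNC5B peaks (341 and 429 bp) and the suspended UNC5A peak (404 bp) were wider than the list median of 252 bp.

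**Figure D3:**
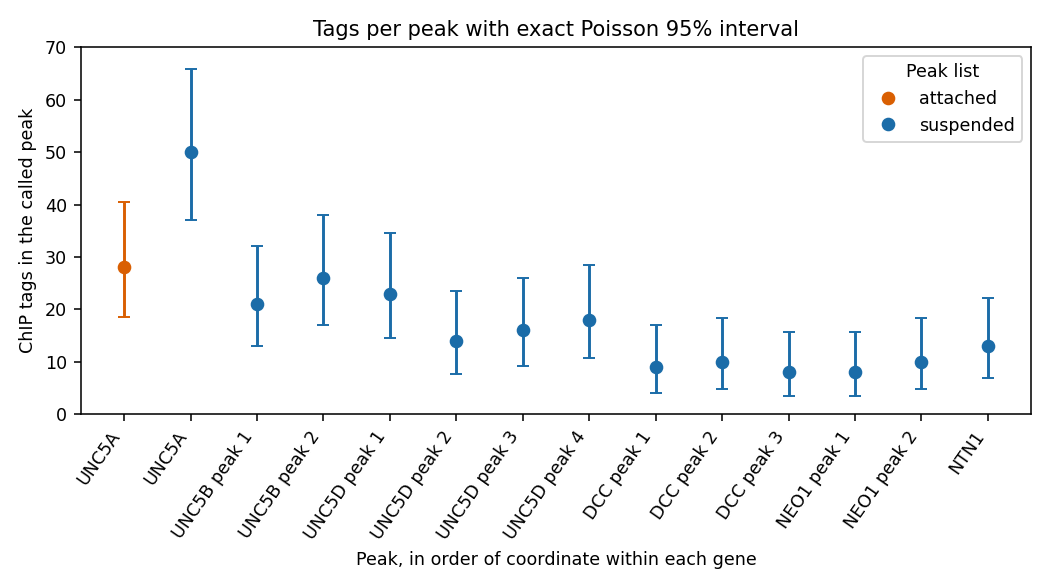
ChIP tags in each of the 14 member peaks (y axis) with exact Poisson 95% intervals, in order of gene and coordinate (x axis), for the attached (orange) and suspended (blue) lists. The suspended UNC5A peak holds 50 tags and the DCC and NEO1 peaks hold 8 to 10.

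Fold and tags ranked the peaks differently. The DCC and NEO1 peaks had folds of 12.94 to 14.9, above the list median of 9.1, with tags below its median of 15. Small peaks of the list were alike in this, since 88.6% of its 2723 peaks of 10 or fewer tags had a fold above 9.1, with a median of 11.81. The UNC5B peaks had folds of 5.59 and 7.56, below the median, with tags above it. Tags divided by fold also depends on the width of the called region, since tags were counted over all of it. The UNC5B peaks were 341 and 429 bp wide, the UNC5A peak 404 bp, and those of DCC and NEO1 144 to 211 bp. The quotient, not corrected for width, was 3.76 and 3.44 at the UNC5B peaks and 0.537 to 0.733 at those of DCC and NEO1. The median over the list was 1.59. UNC5A was at 1.77, NTN1 at 1.53 and the UNC5D peaks at 1.39 to 2.66. The number of DNA copies at these genes was not measured here, and its part in these values was not tested.

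**Figure D4:**
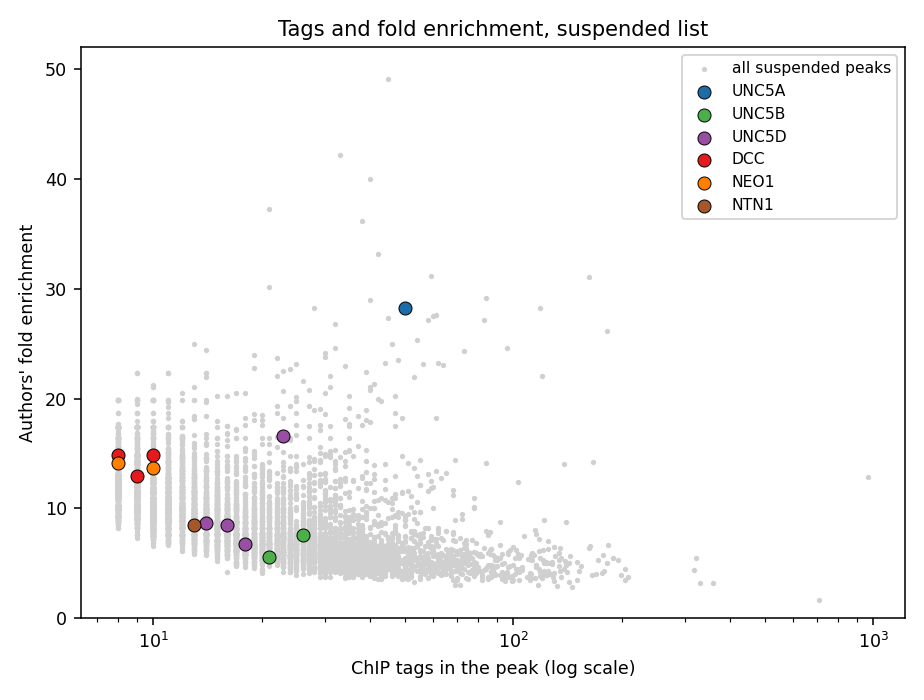
Tags (x axis, log scale) and the authors' fold (y axis) of the 9024 suspended peaks in grey, with the 13 member peaks coloured by gene. UNC5A stands at 50 tags and a fold of 28.25, the DCC and NEO1 peaks at few tags and folds of 12.94 to 14.9, and the UNC5B peaks at 21 and 26 tags and folds of 5.59 and 7.56.

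The member peaks lay away from gene ends. Of the 13 suspended summits, 12 lay inside the member gene, and 0 lay within 1 kb of an end of any annotated gene, where 36.4% of 8981 suspended summits on assembled chromosomes did. Long genes have more inside to hit. Among the 4696 protein-coding genes at least as long as UNC5A, 22.1% of 2934 pairs of a gene and a suspended peak had the summit within 1 kb of that gene's end. With 13 peaks in 6 genes, a difference from that share has little precision, and it was not tested.

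Counted per length, the 7 genes with their 5 kb flanks cover 2.87 Mb and held 4.53 suspended peaks per Mb (Poisson 95% interval 2.41 to 7.75). The protein-coding genes together held 5.44 per Mb, and those at least as long as UNC5A held 2.88. Both values lie inside the members' interval. Density fell with span, however, and was 5.85 per Mb in genes of 50 to 100 kb, 2.46 at 200 to 500 kb and 1.24 over 500 kb. The last value lies below the members' interval, and UNC5D and DCC, which are of that class, make up most of the members' length. A comparison weighted by span class was not made, so these values do not place the members at background for their length. UNC5B had 19.9 peaks per Mb (2.41 to 72.0), UNC5A 12.4 (0.315 to 69.4), NEO1 7.59, UNC5D 7.0, NTN1 3.99 and DCC 2.49 (0.513 to 7.27). UNC5C had 0 (0 to 9.30). The intervals of all 7 genes overlap, those of UNC5B and DCC included, so this order is not resolved. The regions around the genes also differed. From 1 Mb before to 1 Mb after the gene, without the gene and its flanks, there were 12.1 suspended peaks per Mb around UNC5A and also around UNC5B, and 13.6 around NTN1. The median over protein-coding genes was 4.02. There were 5.53 around NEO1, 3.52 around DCC, 2.01 around UNC5D and 0 around UNC5C. UNC5A and UNC5B thus lay in regions richer in peaks than 88.6% of protein-coding genes, while UNC5D held its 4 peaks in a sparser one. The part of the region in the members' counts was not tested.

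**Figure D5:**
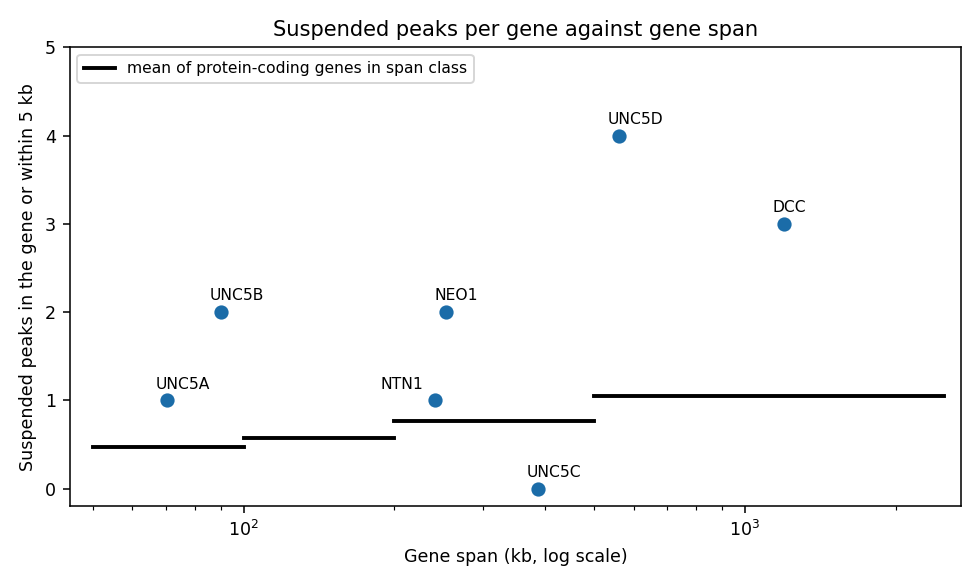
Suspended peaks in each gene or within 5 kb of it (y axis) against gene span in kb (x axis, log scale), with the mean number per protein-coding gene of each span class from 50 kb upward as black lines. UNC5D holds 4 peaks and DCC 3, against a class mean of 1.04, and UNC5C holds 0, against 0.768.

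Genes around the receptors in netrin signalling were taken from a list of 40 other ligands, co-receptors and intracellular partners. Of these, 15 held a suspended peak (37.5%, against 28.6% of protein-coding genes and 33.8% of those of 50 to 100 kb, the class of the list's median span of 74.9 kb) and 2 an attached one (5.0%, against 1.86%). The highest fold was in PAK1 (16.39, 9 tags, FDR 6.38%), a kinase acting below RAC1 and CDC42. The score of that peak, 50.07, was near the lowest of the suspended list, 50. DSCAML1, a relative of the netrin receptor DSCAM, came next (14.56, 14 tags, FDR 1.22%). Netrin-G1, a membrane-anchored relative of netrin-1, is encoded by NTNG1, which had a fold of 13.11 (FDR 1.71%). DAPK1, the kinase through which UNC5B is known to promote death, held 2 peaks. Their folds were 13.03 (FDR 5.94%) and 10.69 (FDR 1.75%), the former 4966 bp beyond the gene. DOCK1, a RAC1 activator, had a fold of 11.47 (FDR 3.62%). SIAH1, a ubiquitin ligase known to target DCC, had 11.08 (FDR 3.26%), and RGMA, a neogenin ligand, 10.57 (FDR 6.34%). PTK2, the focal adhesion kinase, held 5 peaks, the highest at 9.99 (FDR 5.18%). RGMB, another neogenin ligand, had an attached peak of 20 tags and a suspended peak of 29 tags that did not overlap it. MYO10, a motor protein that carries DCC, had an attached peak of 32 tags, and 2 suspended peaks elsewhere, of 34 and 177 tags. The larger was 2447 bp wide at a fold of 4.1 (FDR 0.99%), with its summit 204 bp beyond the gene. The attached peaks of RGMB and MYO10 each had an FDR of 100%. TRIO, picked out after its values were seen, held 13 of the 35 suspended gene and peak pairs of this list, at folds of 3.64 to 7.49. Low fold did not mean few tags here, since the TRIO peaks held 30 to 135 tags. The one of 135 tags had a score of 196, and the one of 30 tags a score of 50.68 (FDR 6.28%). TRIO spans 366.9 kb of chromosome 5, which also holds MYO10 and RGMB. Genes of 200 to 500 kb held 0.768 suspended peaks on average, and 3.23% of them held at least 4. Peak density around TRIO was not measured, and the part of its region in this count was not tested. When the upper 50% of the suspended list by score was taken, 8 of the 40 genes held a peak, where 18% of protein-coding genes did. At an FDR of at most 5% the count was 10, against 24.2%.

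Receptors outside the netrin family that have been described as dependence receptors formed a list of 18 genes, of which 9 held a suspended peak (50%, against 28.6%, or 33.8% in the class of the list's median span of 93.1 kb) and 0 an attached one. NTRK3, the neurotrophin-3 receptor, had the highest fold, 14.04 with 11 tags. ALK held 3 peaks, with folds of 12.88, 12.2 and 9.99. PTCH1, the Hedgehog receptor, had a fold of 12.6 at 4520 bp outside the gene. ITGAV, an integrin subunit, had a fold of 12.02 at 90 bp from a gene end. NOTCH3 had a fold of 10.46, RET 8.24 and NGFR, the p75 neurotrophin receptor, 5.21. The summit lay within 1 kb of an end of the gene in 3 of the 11 gene and peak pairs of this list and in 3 of the 35 of the netrin signalling list, beside the 22.1% given above for long genes. With summits inside the gene alone, 5 of the 18 genes held a peak, where 20.3% of protein-coding genes did. The netrin receptors and NTN1 kept 6 of 7 under that count. None of the 35 or 11 pairs of these lists was called in both conditions, where 2.35% of the whole suspended list was.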

How the data were processed

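SPIB ChIP-seq was analysed from 2 deposited peak lists, 1 per condition. Peaks were called with MACS 1.4.2 within each condition, ChIP against input, at p up to 1e-05 with band width 200 bp, model folds from 10 to 30 and no more than 1 tag per position, per the file headers. The modelled fragment length was 58 bp (attached) and 63 bp (suspended), near the tag size of 50 bp, and its effect on summits and widths was not tested. The build was hg38, per the submitters' processing notes, and no source used here names the aligner. Tags are the authors' unnormalized counts of ChIP tags per peak, and the fold is the authors' ratio to local background. The score column of the deposited lists lost its name to a spreadsheet error and was read from its place and lowest value. The FDR is the authors' percent.

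Genes came from a RefSeq table (GRCh38.p14), which held the 7 members, with spans but no strand or exons. The strand was taken from the promoter table, which held 4 members. The summit was the start plus the summit offset minus 1. Peaks of both lists were paired where they overlapped by at least 1 bp. Intervals are 95% exact Poisson, and exact conditional binomial (Clopper-Pearson) for ratios. The procedure was tested on simulated peaks. Python 3.11.15, numpy 2.4.6, pandas 2.3.3, SciPy 1.17.1 and matplotlib 3.10.9 were used. The members and the lists were chosen with earlier results of these data known. Named were the 7 members, any gene within 5 kb of their peaks, list genes with an attached peak, up to 8 more per list by suspended fold, and the 5 pairs nearest to UNC5A. A gene that this rule names is not reported here. Other flanks, an FDR limit, the upper 50% by score, placement by overlap, and other definitions of a shared peak, of the tag ratio and of the span were tried as alternatives.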

Additional observations from a re-analysis of the deposited data

How the results depend on the processing

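No paired analysis was possible because each group has 1 library. The number of members with a suspended peak stayed at 6 with no flank, with flanks of 1 and 10 kb, at an FDR of at most 5% and by any overlap, and was 5 for the upper 50% by score, where NTN1 left. Members with an attached peak fell from 1 to 0 at an FDR of at most 5%, since the UNC5A peak had an FDR of 18%, and stayed at 1 under the 5 other alternatives. Netrin signalling genes with a suspended peak fell from 15 to 8 for the upper 50% by score, which holds fewer peaks. Other dependence receptors fell from 9 to 5 with no flank, which leaves out peaks beside the gene. The 1 shared member site, UNC5A, was also found by summits within 100 bp and by an overlap of 50% of the narrower peak. Its tag ratio was 1.82, 1.4 per bp and 1.79 without depth scaling. Member peaks per Mb ran from 3.49 (upper 50% by score) to 4.53. Peaks of 8 to 10 tags carry wide counting intervals, which limits what the DCC and NEO1 values show.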
